A study of Drosophila melanogaster with 3 samples.

Results

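The nuclear pore genes are the protein-coding genes of Drosophila melanogaster whose symbol is Nup followed by a number, together with Mtor, mbo, Elys, Ndc1, Sec13, Rae1 and Aladin. The rule found 28 of the 13968 protein-coding genes of the Ensembl BDGP6 annotation. Mtor is listed there as Mgtor (FBgn0013756) and was matched through its older symbol. What was measured is where Trem sits on the genome, as peak lists from chromatin immunoprecipitation followed by sequencing (ChIP-seq). Trem is a zinc finger protein encoded by trade embargo and known for its role in meiotic recombination. The libraries came from whole embryos of mixed sex, 0 to 14 hours old, of a transgenic line that carries trem with GFP fused at the C terminus, and an anti-GFP antibody was used. There were 3 biological replicates of this 1 group, with 1 technical replicate each, and no library without the tag was analysed here.

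The nuclear pore is the channel through the nuclear envelope by which proteins and RNA pass between nucleus and cytoplasm. Its scaffold is built of an outer ring, the Y complex, on both faces and an inner ring between them, and the passage is filled by nucleoporins rich in phenylalanine-glycine repeats. Filaments on the cytoplasmic side and a basket on the nuclear side receive cargo, and some Drosophila nucleoporins, among them Nup98, are also known to bind chromatin of active genes away from the pore. Pore genes are expressed in most cell types.

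A gene was called bound when any annotated transcription start site (TSS) of it had a summit of the IDR list at 500 bp or less. That list holds the 7477 peaks that the authors derived from all 3 replicate lists and the pooled list. By this rule 23 of 28 nuclear pore genes were bound (82.1%), against 41.7% of all protein-coding genes. The unbound genes were Nup35, Nup93-2, Nup154, Nup58 and Nup153. Each peak carries the authors' signal value, which was read only within its own list, and a rank from 1, the strongest. The windows printed here were read around the summit on the dm6 assembly, from the RefSeq genome, 5′ to 3′ on the strand of the gene, and were shortened where they would take in more than 30 exonic bases on a side. Nup37, Nup205, Nup358 and Ndc1 each stand for the bound genes of a subcomplex, although not always for its strongest one. Nup93-1 and the unbound Nup58 are shown because they hold a motif described later. Capitals mark motif letters. They are the E-box CAGCTG in Nup37, a TATA box in Nup37 and Nup58 (on either strand, overlapping itself in the last run of Nup37), motif 1 in Ndc1 and the DNA replication-related element (DRE) in Nup93-1 and Nup58. Motif 1 reads GGTCACACT and the DRE reads TATCGATA. The windows of Nup205 and Nup358 hold none of the motifs searched. In order, the windows are chr3R:25247485-25247666, chrX:19852067-19852243, chr3R:25249209-25249377, chr3R:23924290-23924428, chrX:13822410-13822610 and chr3R:19644915-19645055, all on the + strand.
Nup37: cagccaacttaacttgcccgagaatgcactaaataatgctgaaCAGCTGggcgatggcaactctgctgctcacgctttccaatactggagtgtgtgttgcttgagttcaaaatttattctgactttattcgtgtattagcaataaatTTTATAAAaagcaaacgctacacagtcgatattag
Nup205: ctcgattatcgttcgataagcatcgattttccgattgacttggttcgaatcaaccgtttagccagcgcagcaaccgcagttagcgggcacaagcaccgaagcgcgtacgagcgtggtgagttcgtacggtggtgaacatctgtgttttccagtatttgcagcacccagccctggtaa
Nup358: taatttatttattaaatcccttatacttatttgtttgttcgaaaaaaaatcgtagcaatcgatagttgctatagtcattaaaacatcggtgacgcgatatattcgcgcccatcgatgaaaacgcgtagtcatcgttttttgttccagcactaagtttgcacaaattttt
Ndc1: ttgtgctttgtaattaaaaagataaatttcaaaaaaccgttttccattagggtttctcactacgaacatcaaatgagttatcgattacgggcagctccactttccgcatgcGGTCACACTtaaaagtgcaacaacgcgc
Nup93-1: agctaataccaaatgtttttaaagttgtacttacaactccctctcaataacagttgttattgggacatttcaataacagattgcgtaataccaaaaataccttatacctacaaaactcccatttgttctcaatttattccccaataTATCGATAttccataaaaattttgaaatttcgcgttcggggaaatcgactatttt
Nup58: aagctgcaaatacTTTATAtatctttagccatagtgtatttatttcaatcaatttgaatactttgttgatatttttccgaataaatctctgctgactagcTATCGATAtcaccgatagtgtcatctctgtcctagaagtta

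The share of bound pore genes was above that of all genes in each replicate. Over the 7477 strongest peaks of each replicate list, 24 pore genes were bound in replicate 1, against 40.6% of all genes. In replicate 2, 22 were bound, against 41.4% of all genes, and in replicate 3, 25 were bound, against 40.4%. The pore gene share averaged 84.5% ± 5.46 and the share of all genes 40.8% ± 0.498 (SD, n = 3 replicates), so the ranges of the shares did not overlap. The IDR list was made from these replicates, so its count and theirs are not independent. In all 3 replicates, 21 pore genes (75.0%) were bound, against 34.3% of all genes, and 2 pore genes, Nup154 and Nup58, were bound in none. With any summit of the longer pooled list allowed, 28 of 28 pore genes had one, against 58.8% of all genes.

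Although most pore genes were bound, their IDR peaks had a lower median signal value than those of all bound genes. The signal value at the 23 bound pore genes had a median of 249.7 and ranged from 166.4 at Aladin to 879.3 at Nup37. Over all 5818 bound genes the median was 329.3 and the highest value 12214. The median rank was 4073 for bound pore genes and 2746 for all bound genes. For these same genes, bound in the IDR list, the order was alike in each replicate list. Their median ranks there were 3252, 3766 and 3694 for pore genes, against 2901, 2628 and 2735 for all genes. In the whole pooled list, where weaker peaks count too, the medians no longer differed in this way, at 243.9 over 28 pore genes and 243.1 over 8210 genes. Of the pore genes bound in the IDR list, 0 reached a signal value of 1000, against 7.36% of all bound genes, and 11 (47.8%) ranked 3738 or better, against 64.6%. Only Nup37, Nup133 and Nup98-96, all of the Y complex, ranked 748 or better, which is 13.0% of bound pore genes against 14.7% of all bound genes, a share near the background. The weakest bound pore gene was Aladin, at 166.4, and the strongest unbound one Nup153, at 131.9 on the same scale in the pooled list, while the weakest IDR peak of any kind was at 144.4.

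**Figure D1:**
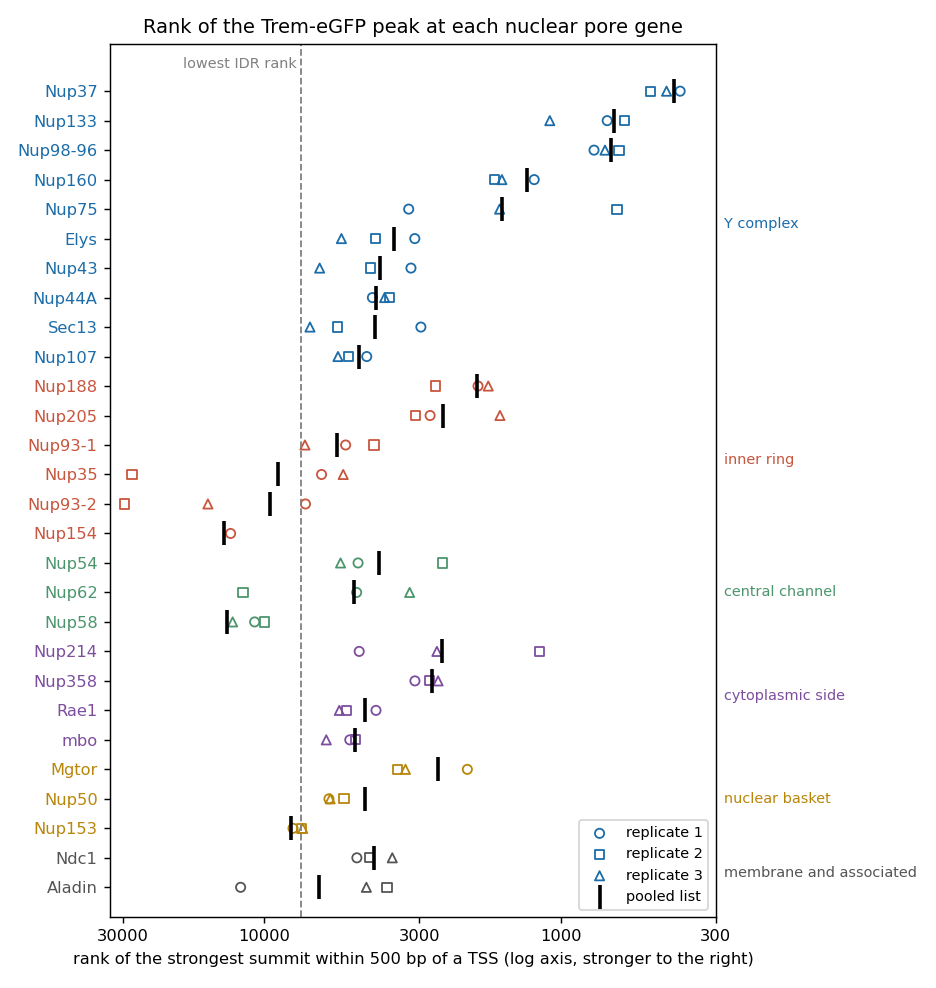
Rank of the strongest summit within 500 bp of a TSS at each of the 28 nuclear pore genes, in each replicate list (open symbols) and in the pooled list (bars), on a log axis with stronger peaks to the right and genes grouped by subcomplex. All 10 Y complex genes lie to the right of the dashed line, the rank of the weakest IDR peak (7477), in every replicate, whereas Nup154 and Nup58 lie to its left wherever they have a peak.

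The Y complex, the branched scaffold unit that forms the outer rings, was bound at 10 of 10 genes in the IDR list and at 10 of 10 in each replicate. Its median signal value was 357.5, with a range of 221.6 to 879.3. Nup37, a β-propeller subunit of the outer ring, had the strongest pore gene peak, with a signal value of 879.3 and an IDR rank of 415. Its ranks were 395, 496 and 439 in replicates 1, 2 and 3. Nup133, which sits at the stem end of the Y, ranked 662 in the IDR list at a signal value of 673.0, and 696, 610 and 1087 in the replicates. Nup37 thus ranked above Nup133 in each of the 3 libraries, and their ranks did not overlap.

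The other Y complex members spread over the lower ranks. Nup98-96 encodes a precursor that is cleaved into Nup96, a Y complex subunit, and the phenylalanine-glycine nucleoporin Nup98, and its peak had a signal value of 666.9. Nup160, the long arm subunit, had 490.0, and Nup75, the fly counterpart of Nup85, had 443.2. Nup75 was the least even of the bound pore genes, at ranks 3252, 645 and 1605 in replicates 1, 2 and 3. Elys, which in vertebrates recruits the Y complex to chromatin at the end of mitosis, had 271.7. Nup43, Nup44A (the fly Seh1), Sec13 (shared with the COPII vesicle coat) and Nup107 lay between 249.7 and 221.6. The peak of Nup44A lay at an internal start site, so this gene was bound only because any annotated TSS counted.

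Of the inner ring, the scaffold next to the pore membrane, 3 of 6 genes were bound in the IDR list, and 5, 3 and 4 in replicates 1, 2 and 3. Nup188 had a signal value of 403.8 and ranks of 1898, 2646 and 1753 in the replicates. Nup205, its structural relative, had 349.1 and ranks of 2754, 3090 and 1601. Nup93-1, one of the fly's pair of Nup93 genes and the linker that holds Nup188 and Nup205, was weaker at 190.1. The other Nup93 gene, Nup93-2, was unbound, with a pooled signal value of 108.3 at pooled rank 9553, and ranks of 7248, 29505 and 15462 in the replicates. Nup35, a membrane-binding nucleoporin, was unbound with a pooled signal value of 116.9 at rank 8981, and its replicate ranks were 6398, 27864 and 5407. Nup93-2 thus had a peak among the strongest 7477 in replicate 1 only, and Nup35 in replicates 1 and 3. At Nup35 those summits lay at different places, -79 and -256 bp. Both genes had a very weak peak in replicate 2. Nup154, the fly Nup155, was the weakest of all pore genes, at a pooled signal value of 73.4 and rank 13635, with rank 12965 in replicate 1 and no peak within 500 bp in replicates 2 and 3.

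The central channel trimer of phenylalanine-glycine nucleoporins was bound at Nup54 and Nup62 but not at Nup58, and at 2, 1 and 2 genes in replicates 1, 2 and 3. Nup54 had a signal value of 248.4 and ranks of 4818, 2505 and 5520. Nup62 had 214.1 and ranks of 4872, 11784 and 3228, so in replicate 2 it fell outside the strongest 7477. Nup58 ranked 10757, 9936 and 12761 in the replicates, outside that limit each time, and its pooled signal value was 75.0 at rank 13358.

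On the cytoplasmic side 4 of 4 genes were bound, in the IDR list and in each replicate. Nup214, a docking site for export complexes, had a signal value of 347.8 and ranks of 4776, 1181 and 2612. Nup358, the giant Ran-binding nucleoporin of the cytoplasmic filaments (RanBP2 in mammals), had 332.1 and close ranks of 3098, 2774 and 2588. Rae1, an mRNA export factor, had 229.4, and mbo, the fly Nup88 and partner of Nup214, had 216.1. On the nuclear side, Mgtor, the long coiled-coil protein of the basket (Tpr in vertebrates), had 342.0 and ranks of 2062, 3552 and 3335. Nup50, a cofactor of importin-mediated import, had 229.7 and ranks of 6041, 5374 and 5983.

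Nup153, the basket gene left unbound, was the borderline case. Its pooled signal value of 131.9 stood at rank 8094, below the weakest IDR peak, and its replicate ranks were 7984, 7485 and 7406. Only replicate 3 therefore placed it among the strongest 7477, so basket genes were bound at 2, 2 and 3 of 3 in replicates 1, 2 and 3. The strongest summits near Nup153 lay at -70, -400 and -446 bp in the replicates and at -371 bp in the pooled list. These ranks thus did not all describe the same position. Of the pair grouped as membrane and associated, Ndc1, a transmembrane nucleoporin, had a signal value of 242.1 and ranks of 4863, 4399 and 3694. Aladin, which in vertebrates is anchored at the pore by Ndc1 and whose human counterpart is mutated in triple A syndrome, had 166.4, with ranks of 11995, 3846 and 4517. Aladin was thus outside the strongest 7477 in replicate 1. Subcomplexes hold 2 to 10 genes each and no test of differences between them was made.

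**Figure D2:**
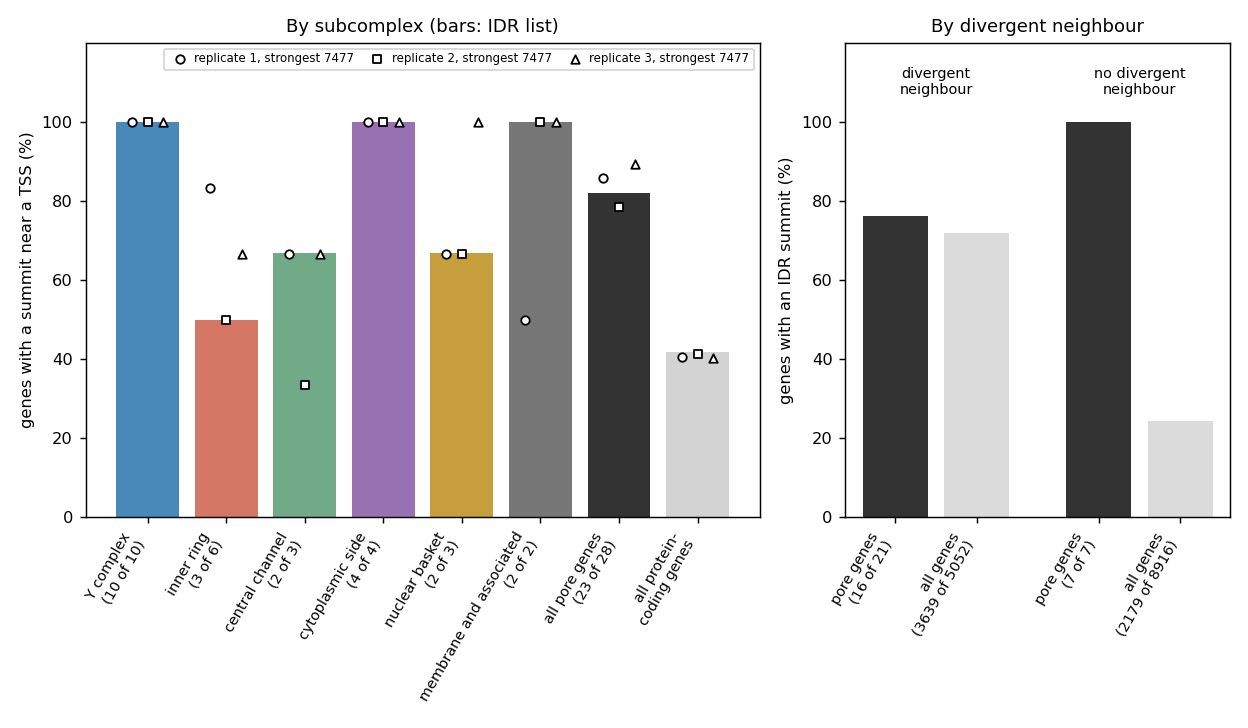
Left, share of genes bound (%) in each pore subcomplex, over all 28 pore genes and over all protein-coding genes, with bars for the IDR list and symbols for the 7477 strongest peaks of each replicate. Right, share of genes bound in the IDR list among those with and without a divergent neighbour, for pore genes (dark) and all genes (light). By the IDR bars of the left panel, all pore genes lie at 82.1%, all protein-coding genes at 41.7%, and the inner ring is lowest, at 3 of 6. The inner ring is alone the lowest in no replicate, at 5, 3 and 4 of 6. In replicates 1, 2 and 3 the central channel has 2, 1 and 2 of 3, and the membrane pair 1, 2 and 2 of 2.

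Replicates differed in how they ranked single pore genes, to about the same extent as for other bound genes. The ratio of the highest to the lowest rank over the 3 replicates had a median of 1.71 for the 23 bound pore genes and 1.8 for the 5715 bound genes that had a peak in all 3 lists. It was over 2 for 7 bound pore genes, which were Nup75 at 5.04, Nup214 at 4.04, Nup62 at 3.65, Aladin at 3.12, Sec13 at 2.37, Nup54 at 2.2 and Nup43 at 2.03. No replicate was the outlying one for all of them, since replicate 2 ranked Nup75, Nup214 and Nup54 best but Nup62 worst. The IDR summit was matched within 100 bp by a summit in all 3 whole replicate lists at 22 of 23 bound pore genes, the exception being Sec13, matched in 2 lists, against 88.8% over all bound genes.

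The summits lay just upstream of the start sites. The median distance was 68 bp upstream for bound pore genes and 99 bp upstream for all bound genes. Within 100 bp of a TSS lay 16 of 23 pore gene summits (69.6%), against 48.8% for all bound genes, and within 150 bp 20 (87.0%), against 67.7%. In the replicate lists, pore genes bound in the IDR list had medians of 81, 71 and 87 bp upstream (SD 8.08 bp, n = 3). All genes bound in the IDR list had 99, 94 and 94 bp upstream (SD 2.75 bp), so the pore gene medians were nearer in all 3. Upstream of the nearest TSS lay 21 of 23 pore gene summits (91.3%, against 89.4%). Only those of Nup98-96, by 28 bp, and Nup54, by 9 bp, lay downstream of it. The summits of Nup62 and Nup44A lay upstream of an internal start site and so within the annotated gene. The summits farthest upstream were those of Nup93-1 at 316 bp, Nup214 at 249 bp and Aladin at 209 bp. The unbound genes had weak pooled summits at -5 bp (Nup154), -11 bp (Nup58), -26 bp (Nup93-2), -253 bp (Nup35) and -371 bp (Nup153), with negative values upstream.

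**Figure D3:**
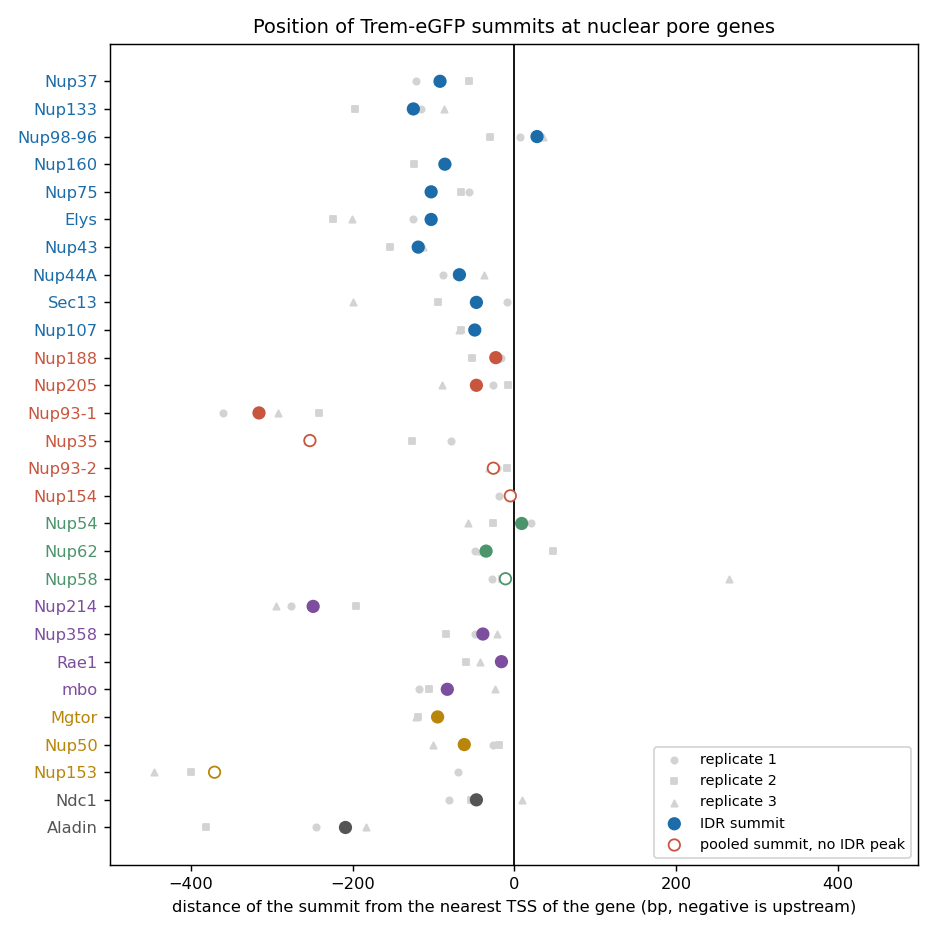
Distance of the summit from the nearest TSS (bp, negative is upstream) at each of the 28 nuclear pore genes, with coloured discs for IDR summits, open circles for the pooled summit of the 5 unbound genes and grey symbols for the replicates. Of the 23 IDR summits 20 lie within 150 bp of the TSS. Those of Nup93-1, Nup214 and Aladin lie farther upstream, and those of Nup98-96 and Nup54 just downstream of the nearest TSS.

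Many pore genes share their promoter region with a neighbour on the opposite strand. A divergent neighbour, with a TSS on the opposite strand at most 1000 bp upstream, was present at 21 of 28 pore genes (75.0%) and at 36.2% of all genes. Of these pore genes 16 of 21 were bound (76.2%), against 72.0% of all genes with such a neighbour, a share near the background. Without a divergent neighbour, 7 of 7 pore genes were bound, against 24.4% of all such genes. These 7 were Nup107, Nup54, Nup358, Rae1, mbo, Mgtor and Ndc1, and all 5 unbound pore genes had a divergent neighbour. Of the 7, Nup54 had its summit also in an exon of CG43204, an overlapping gene not counted as a divergent neighbour.

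The peak was common to both genes of each bound divergent pair by the 500 bp window. With a divergent neighbour, start sites were a median of 210 bp apart at pore genes and 298 bp over all genes, so the window can take in both. At all 16 bound pore genes with such a neighbour the summit lay within 500 bp of a TSS of the neighbour as well, against 88.9% over all genes. In 14 (87.5%) it was also the strongest summit of the neighbour, against 87.1%. In the 16 pairs the summit was nearer to the TSS of the pore gene in 9 and nearer to that of the neighbour in 7, so the lists cannot assign the peak to either gene. Nup37 and RpS27, a ribosomal protein gene, have start sites 144 bp apart, and the summit lay 92 bp from that of Nup37 and 52 bp from that of RpS27. Nup133 and wfs1 are 227 bp apart, and the summit lay 125 bp and 102 bp from them. Elys and Ranbp21, a gene of the karyopherin family of transport receptors, are 36 bp apart, and the summit lay 103 bp from the TSS of Elys and 67 bp inside Ranbp21. Sec13 and ATPsynCF6, which encodes an ATP synthase subunit, are 214 bp apart, with the summit 47 bp from the TSS of Sec13. The other pairs with the same strongest peak were Nup98-96 with mbc, Nup160 with Csl4, Nup75 with CG42518, Nup43 with WRNexo, Nup44A with ACC, Nup188 with CG13148, Nup93-1 with Clic, Nup62 with CG7997, Nup50 with Asap and Aladin with Cfp1. Their start sites were between 35 bp (Nup50) and 519 bp (Nup93-1) apart.

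At the remaining 2 bound pairs the neighbour also had a stronger peak of its own. The Nup205 summit lay 47 bp from the TSS of Nup205 and 108 bp from that of pico, whose strongest peak was another one, at a signal value of 7640 against 349.1. The Nup214 summit lay 249 bp from the TSS of Nup214 and 116 bp from that of ReepA, whose strongest peak was another one, at 501.6 against 347.8. The neighbours of unbound pore genes were of both kinds. RpL9, the neighbour of Nup154, was bound at a signal value of 229.7, by a summit 712 bp upstream of the TSS of Nup154. CG9784, the neighbour of Nup153, was bound at 196.4, by a summit 571 bp upstream of Nup153. The neighbours of Nup35 (Rip11), Nup93-2 (CG3817) and Nup58 (Vha13) were themselves unbound.

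Nup37 and Nup358 lie in tandem on chromosome 3R, with 247 bp between the end of Nup37 and the start of Nup358, and start sites 1690 bp apart. Each had its own peak. The Nup37 interval held 2 IDR summits, at -92 bp with a signal value of 879.3 and at 107 bp with 366.6, counted from the 5′-most TSS of Nup37. The Nup358 summit lay 39 bp upstream of its own TSS, in the short gap between the genes, with a signal value of 332.1. All 3 replicates had a summit at both places, those of Nup358 at -49, -85 and -21 bp. Nup93-1 was the other pore gene with more than 1 IDR peak, its weaker summit lying 84 bp upstream at a signal value of 146.0. Together these 2 genes were 8.70% of bound pore genes, against 13.1% of all bound genes.

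**Figure D4:**
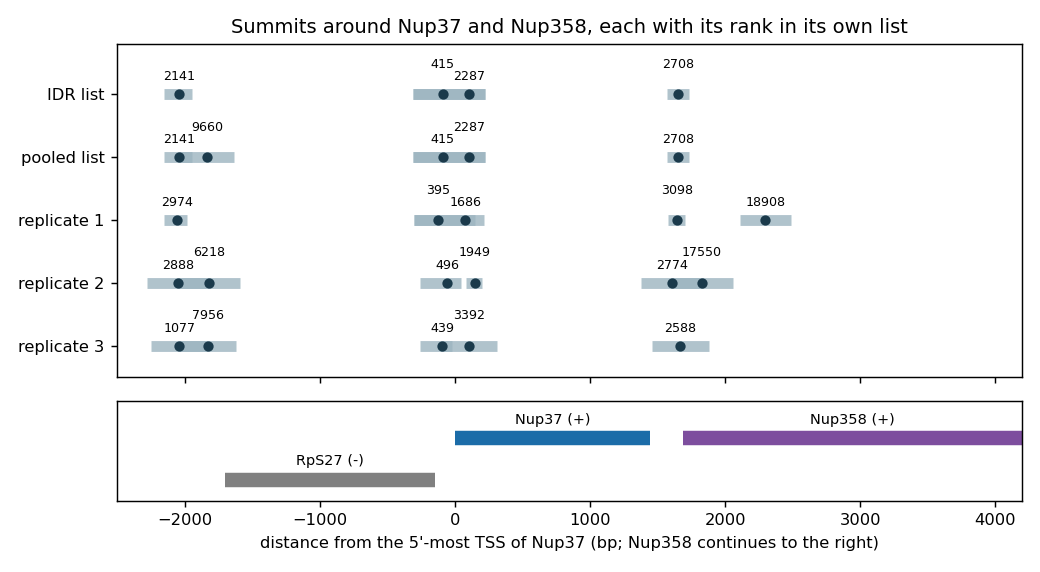
Peak intervals (bars) and summits (dots, with their rank in each list) around Nup37 and Nup358 in the IDR, pooled and replicate lists, with the genes drawn to scale beneath and distance in bp from the 5′-most TSS of Nup37. The divergent start of RpS27 and Nup37 and the start of Nup358 each have a peak in every list.

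Pore genes lie on chromosomes 3R (10, of which 8 bound), 2R (9, all bound), X (6, of which 4 bound) and 2L (3, of which 2 bound), with 0 on 3L. Of all genes on these 4 chromosomes, between 39.4% (2L) and 43.1% (3R) were bound. A single annotated TSS was present at 22 of the 28 (78.6%), against 73.5% of all genes.

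Known promoter motifs were searched as exact letters on both strands within 100 bp of the summit. The DRE, TATCGATA, bound in flies by DREF and common in housekeeping promoters, was present in 5 of 23 bound pore gene windows (21.7%). It was present in 14.6% of the 4110 windows of IDR peaks at promoters and in 7.38% of all promoters, which were windows of the same length centred 99 bp upstream of the TSS. The pore genes were Nup188, Nup93-1, Nup54, Mgtor and Nup50. In windows of 50 bp each side, 2 of these remained, Nup188 and Nup50 (8.70%), against 8.98% of IDR peaks at promoters, so the difference from those peaks was not present there. The E-box CAGCTG was present in 5 bound pore genes as well (21.7%, against 15.1% and 11.6%), which were Nup37, Nup133, Nup44A, Sec13 and Nup188. With 200 bp each side the E-box share turned to the lower side, at 21.7% against 27.3% of IDR peaks at promoters. Only Nup188 had both motifs. With 23 windows, a single gene moves such a share by several percentage points, and the pore gene shares were not tested against the others.

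Motif 1, GGTCACACT, another element common in fly housekeeping promoters, was present in Nup62 and Ndc1 (8.70%), against 9.27% of IDR peaks at promoters and 2.82% of all promoters. Among 8-letter words in at least 5% of IDR windows, AGTGTGAC had the highest ratio of its share in IDR windows to that in promoters, 1.93. That word is part of motif 1 read on the opposite strand, and it was present in the same pore genes, Nup62 and Ndc1. TATAAA was present in 10 bound pore genes (43.5%), against 35.4% of IDR peaks at promoters and 36.9% of all promoters, and GAGAGAG in 0, against 2.46% and 4.72%. With 50 bp each side TATAAA turned to the lower side, at 13.0% of bound pore genes against 20.6% of IDR peaks at promoters. Motifs were present at unbound pore genes as well. The unbound Nup58 had a DRE 4 bp from its weak pooled summit, and the unbound Nup93-2 had motif 1 at 62 bp from its own. Median GC content was 37.8% in bound pore gene windows, 35.8% at IDR peaks at promoters and 37.3% in all promoters.

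Genes of the transport machinery that works with the pore were also bound at shares above that of all genes in the IDR list. Of karyopherins and genes of the Ran cycle, the receptors and the small GTPase system that carry cargo through the pore, 23 of 26 were bound (88.5%), and 22, 18 and 22 in replicates 1, 2 and 3. Kap-alpha3, an importin α, had a signal value of 7701 at rank 28, Fs(2)Ket, the fly importin β, 3500 at rank 132, and Tnpo-SR, the importer of SR splicing factors, 960.1 at rank 376. Each of these was above the strongest pore gene, Nup37 at 879.3, although the list's median of 276.8 was close to the 249.7 of pore genes. Ntf-2, the Ran importer, was unbound at pooled rank 10652, and Ran-like had no peak. Ranbp21 of this list was bound by the peak it has in common with Elys.

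Of mRNA export genes 14 of 17 were bound (82.4%), and 12, 10 and 10 in the replicates. With support asked from both other replicates, only 9, 8 and 9 of them were bound without replicate 1, 2 and 3, against 33.4%, 33.6% and 34.5% of all genes. Hpr1, a THO complex subunit, had 4256, Gle1, an mRNA export factor of the cytoplasmic pore side that the naming rule does not take in, had 4142, and Hel25E, the fly UAP56 helicase, had 470.8, at a peak that also served the divergent Lam, a lamin gene of the envelope list. PCID2 and thoc6 were unbound, at pooled ranks 9073 and 25993. Of nuclear envelope genes that the naming rule does not take in, Gp210 among them, 12 of 14 were bound (85.7%). In the replicates 11, 11 and 9 were bound, but 7, 6 and 10 with replicate 1, 2 or 3 left out in the same way. The strongest of them were bocks, an inner nuclear membrane protein gene, at 762.8, kuk, a nuclear envelope gene known from cellularization, at 547.4, and Msp300, a nesprin, at 476.2. LamC and Tmem43 were unbound, at pooled ranks 14479 and 12945. The pore genes' share of 82.1% was close to those of the 3 lists in the IDR list. With replicate 1, 2 or 3 left out, 21 of 28 pore genes (75.0%) were bound each time, and 17, 20 and 17 of the 26 karyopherin and Ran genes, while the mRNA export and envelope counts were as given above. No share was tested against another.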

How the data were processed

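The deposited peak lists give, for each peak, an interval and summit on dm6 and the authors' signal value, whose normalization is not stated. Per the deposited file lists, each replicate list came from one library and a control, the pooled list from the 3 alignments and a control, and the IDR list from these lists. Replicate and pooled lists held 30000 peaks each and the IDR list 7477, the strongest of the pooled list. The sources used here give no aligner or peak caller. Read counts were not analysed here, so depth is unknown and no interval is given.

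Genes and TSSs came from Ensembl 115 (BDGP6.54), which is on the same assembly as dm6, and every peak ended within its chromosome. For a gene with several summits within 500 bp of a TSS, the strongest in each list was used. The ranks of a gene in different lists can therefore belong to different summits. Scripts were run with Python 3.11.15, numpy 2.4.6 and pandas 2.3.3 and tested on simulated data. The members, lists and motifs were chosen with earlier results of these data known, so they are described and not tested. All 3 samples form 1 group and no comparison between conditions was possible. Of 16 envelope entries, 1 was not matched and 2 named the same gene. Named in full are the 2 strongest bound members and every unbound member of each subcomplex, and of each further list the 3 strongest bound and up to 2 unbound genes in alphabetical order. Alternatives were other TSS and motif windows, only the 5′-most TSS, the stronger IDR peaks and the whole pooled list. Each replicate was also left out in turn, by keeping only the IDR peaks supported by both others.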

Additional observations from a re-analysis of the deposited data

How the results depend on the processing

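The count of 23 bound pore genes (82.1%) was unchanged with a TSS window of 250 bp, against 36.9% of all genes. It was 25 with 1000 bp (89.3%, against 45.0%, adding Nup153 and Nup154) and 22 with only the 5′-most TSS (78.6%, against 39.8%, without Nup44A). With the whole pooled list it was 28 (100%, against 58.8%). Asking for support from both other replicates dropped a pair of the genes Sec13, Nup62 and Aladin each time. The count was then 21 (75.0%), against 33.4%, 33.6% and 34.5% of all genes without replicate 1, 2 and 3. Among IDR ranks up to 3738 it was 11 (39.3%, against 26.9% of all genes), with 6 in the Y complex, 0 in the central channel, 2 on the cytoplasmic side, 1 in the basket and 0 of the membrane pair, while the further lists had 14 (karyopherins and Ran), 7 (mRNA export) and 5 (envelope).

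Leaving out a replicate gave a range of 1 to 2 for the central channel and for the membrane pair, 8 to 9 for mRNA export and 6 to 10 for the envelope list. Signal values and summits were still those of the IDR list, made from all 3 replicates. Leaving out a replicate only dropped IDR peaks that lacked support in both others. Over the peaks kept, the median signal value of bound pore genes was 271.7, whichever replicate was left out. Over all bound genes it was 373.2, 373.3 and 369.4 without replicate 1, 2 and 3. With only the 5′-most TSS the medians were 260.7 and 327.5. The median signed distance at pore genes was -83 bp with the 1000 bp window, against -105 bp over all bound genes. With a replicate left out it was -83 to -68 bp, against -102 to -97 bp. Motif counts in windows of 50 bp each side were 2 for the DRE (8.70%, against 8.98% of IDR peaks at promoters), 0 for motif 1 (against 4.60%), 3 for the E-box (13.0%, against 8.08%), 3 for TATAAA (13.0%, against 20.6%) and 0 for AGTGTGAC (against 4.96%), and in windows of 200 bp each side 5 for motif 1 (21.7%, against 14.4%), 17 for TATAAA (73.9%, against 54.8%) and 5 for AGTGTGAC (21.7%, against 15.4%). The cause of these shifts was not tested.

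No paired analysis was possible because all samples form 1 group. Without depth, a missing or weak peak cannot be told apart from one below detection, as for Nup154 in replicates 2 and 3. The lists show where tagged protein was enriched in mixed tissues of whole embryos, not in which cells, and a peak in common with a divergent neighbour belongs to neither gene alone.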
